A study of Arabidopsis thaliana with 6 samples.

Results

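Described here are the genes of the autophagy machinery of Arabidopsis thaliana, a set of 42 loci chosen by name from the known components of the pathway. They comprise the ATG8 family, the enzymes that conjugate ATG8 and ATG12, the ATG1 kinase complex, the ATG9, ATG2 and ATG18 proteins, the phosphatidylinositol 3-kinase complex and 3 cargo receptors. Of the 42 loci, 38 had a probe set among the 21430 in the data, and all 38 were measured above the low-value filter and tested. The loci of ATG10, ATG12B, ATG18B and 1 of the 2 ATG4 genes (AT2G44140) had no row in the table and were not analysed here. Leaves came from plants grown in soil under short days for 6 weeks at 400 ppm CO2. The low CO2 group then spent 24 h at 100 ppm, and the ambient CO2 group stayed at 400 ppm. Each group had 3 replicates, each an RNA pool from the leaves of 4 to 5 plants, hybridised to an Affymetrix array. The series describes the treatment as a photorespiratory stress, since scarce CO2 lets Rubisco use more oxygen in its place.

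Autophagy encloses portions of cytoplasm in a double membrane, the autophagosome, and delivers them to the vacuole, where the content is broken down and its building blocks are reused. The ATG1 kinase complex starts the process, the phosphatidylinositol 3-kinase complex marks the membrane with a lipid, ATG9, ATG2 and ATG18 help it to grow, and the ubiquitin-like ATG8 is attached to it and binds cargo receptors. In leaves the pathway recycles chloroplast proteins and other cell contents, and it is best known from darkness, sugar and nitrogen starvation and senescence, in which the leaves of autophagy mutants turn yellow early.

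Values are log2 expression, so that a difference of 1 is 2-fold. A probe set was tested if 3 or more arrays reached log2 4, which 16210 did, with limma and a Benjamini-Hochberg adjusted p under 0.05 as the threshold. The arrays' medians lay between log2 6.07 and 6.11. Low CO2 replicate 1 stood apart from its group: across the tested probe sets its correlation was 0.962 and 0.947 with low CO2 replicates 2 and 3, and between 0.980 and 0.986 with the ambient arrays. Over all probe sets limma called 0 higher and 0 lower with all 6 arrays, and 2722 higher and 3001 lower without low CO2 replicate 1. That omission was chosen with the array's position known, so its p values are likely too small, and the members' results are given with and without the array. The 3 leaf markers that had probe sets, RCA, LHCA1 and PSBO1, lay between log2 13.36 and 14.20 on every array, and the 6 root markers lay at or below log2 4.80. In bulk leaf RNA a change in the share of a cell type cannot be told apart from a change in RNA per cell.

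The low CO2 mean lay above the ambient CO2 mean for each of the 38 autophagy genes, which was true of 46.2% of all probe sets tested. The median log2 difference over the 38 was 0.47, against -0.03 over all probe sets, and the genes ranged from 0.06 for ATG18E to 1.65 for ATG8E. None passed the threshold over all genes: limma called 0 of 38, against 0% of all probe sets, with a smallest adjusted p of 0.118 for VPS15. At an unadjusted p under 0.05 there were 15, all higher, where 13.5% of all probe sets were higher at that level. The groups separated without overlap for 9 of the 38 genes, all higher in low CO2, against 14.6% of all probe sets higher and 14.3% lower in this way. These 9 were ATG5, the ATG16 gene, ATG11, ATG2, ATG18A, VPS34, VPS15, NBR1 and ATI1.

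The size of the difference depended on the low CO2 array. The median over the 38 genes, relative to the ambient mean, was 0.05 on low CO2 replicate 1, 0.69 on replicate 2 and 0.76 on replicate 3. On replicates 2 and 3, 35 of the 38 genes lay above every ambient array, against 28.5% of all probe sets. On replicate 1, 10 of the 38 lay above every ambient array and 12 below every ambient array, against 30.8% and 26.5% of all probe sets. Without low CO2 replicate 1, limma called 30 of the 38 genes higher and 0 lower, against 16.8% and 18.5% of all probe sets, and the median difference was 0.76. Of these, 8 changed at least 2-fold, against 5.71% of all probe sets. Low CO2 replicate 1 was the lowest of its group for 36 of the 38 genes, against 38.8% of all probe sets, and replicate 3 was the highest of all 6 arrays for 28, against 23.0%. Among the ambient arrays, replicate 1 was the highest for 26 of the 38 genes, against 38.9% of all probe sets, and its median lay 0.19 above the other ambient arrays. None of the 38 was called when another of the arrays was omitted instead, against 0% of all probe sets in each of these fits. A fit with array weights, in which low CO2 replicate 1 counted little and whose method was chosen after seeing the data, called 34 of the 38 higher and 0 lower, against 24.1% and 26.9% of all probe sets.

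**Figure D1:**
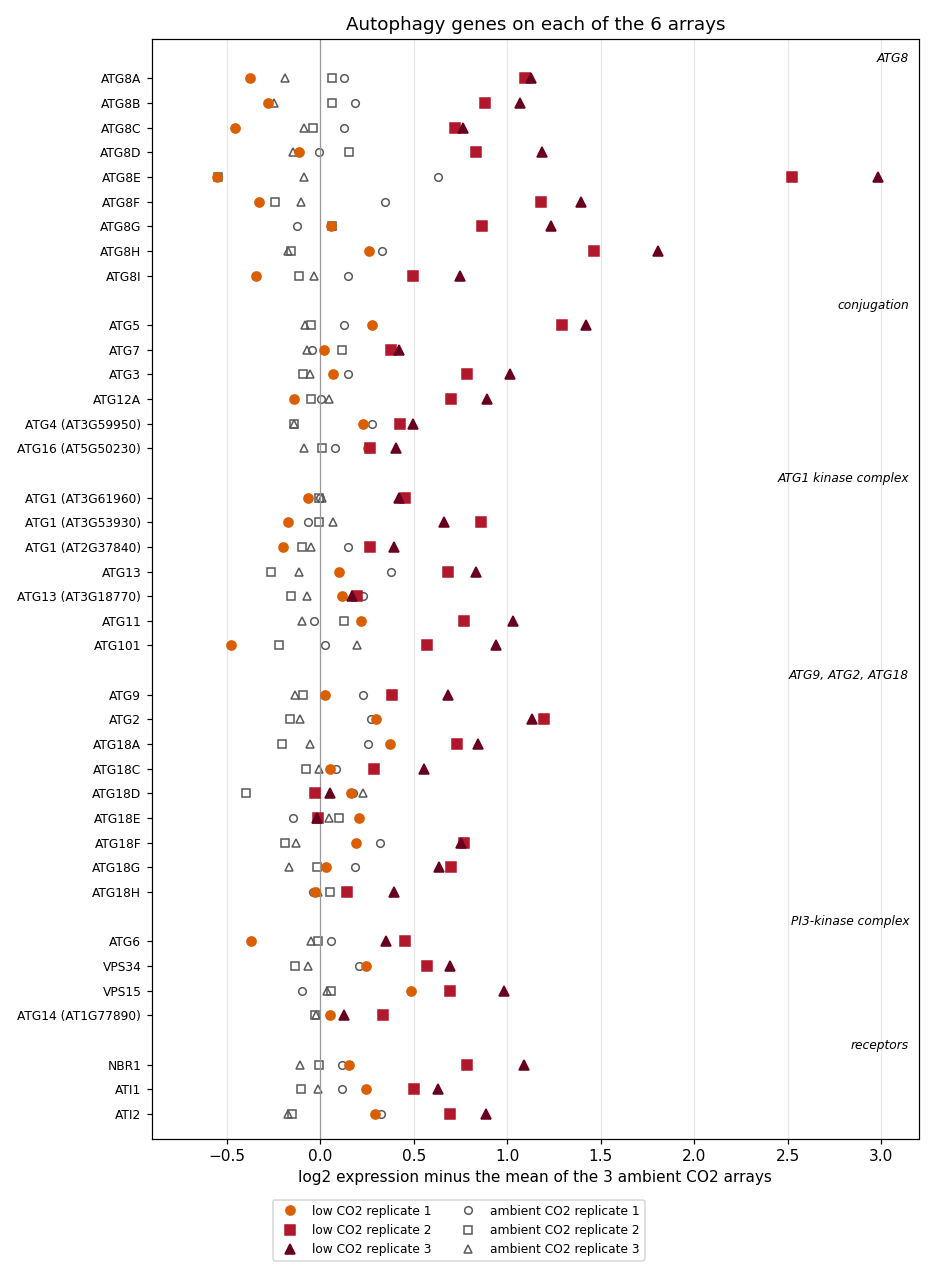
Log2 expression of the 38 measured autophagy genes on each array, minus the mean of the 3 ambient arrays, grouped by complex. Filled symbols are the 3 low CO2 arrays and open symbols the 3 ambient arrays. On low CO2 replicates 2 and 3, 35 of the 38 genes lie to the right of every ambient array, against 28.5% of all probe sets. On low CO2 replicate 1, 10 do and 12 lie to the left of every ambient array, against 30.8% and 26.5%.

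ATG8 proteins are the ubiquitin-like tags of the autophagosome, made in Arabidopsis from a family of genes of which 9 were measured. For all 9 the low CO2 mean was the higher one. Their median log2 difference was 0.63, and limma called 0 with all 6 arrays. The groups overlapped for every one of them, and low CO2 replicate 1 lay within or below the ambient values each time. ATG8E (probe set AT2G45170_at) had the largest difference of all 38 genes. Its levels were log2 6.10, 9.18 and 9.64 on low CO2 replicates 1, 2 and 3, against 7.29, 6.11 and 6.57 on ambient replicates 1, 2 and 3. Replicate 1 of low CO2 was thus the lowest of the 6 arrays and replicates 2 and 3 the highest. ATG8E differed by 1.65 (SE 0.89, limma adjusted p = 0.274). With low CO2 replicate 1 left out it rose by 2.75, or 6.74-fold (SE 0.33, limma adjusted p = 0.00203). Omitting low CO2 replicate 3 gave a difference of 0.98.

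ATG8H (AT3G06420_at) came next. It stood at log2 6.41, 7.62 and 7.95 in low CO2 and at 6.48, 5.99 and 5.98 in ambient CO2. Only ambient replicate 1 exceeded low CO2 replicate 1, by a small margin. Its difference of 1.18 (SE 0.39, 2.26-fold, limma adjusted p = 0.143) became 1.63 without low CO2 replicate 1 (limma adjusted p = 0.00198). ATG8H and ATG8I form the branch of the family whose proteins end at the glycine that is joined to the lipid, so that they need no trimming by ATG4. ATG8I (AT3G15580_at) had log2 9.44, 10.28 and 10.53 in low CO2 against 9.93, 9.67 and 9.75 in ambient CO2. Its difference was the smallest of the family, 0.30 (SE 0.28, limma adjusted p = 0.506), or 0.62 without low CO2 replicate 1 (limma adjusted p = 0.0130).

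ATG8F (AT4G16520_at) stood at log2 10.00, 11.51 and 11.72 in low CO2 and at 10.67, 10.08 and 10.22 in ambient CO2. Its difference was 0.75 (SE 0.45, limma adjusted p = 0.313), or 1.29 without low CO2 replicate 1. ATG8G (AT3G60640_at) had log2 6.81, 7.62 and 7.99 in low CO2 against 6.64, 6.82 and 6.82 in ambient CO2, a difference of 0.72 (SE 0.29, limma adjusted p = 0.177). ATG8G and ATG8H were the 2 members of the family for which low CO2 replicate 1 lay above the ambient mean, by 0.06 and 0.26. ATG8D (AT2G05630_at) measured log2 6.64, 7.58 and 7.94 in low CO2 and 6.75, 6.91 and 6.61 in ambient CO2, a difference of 0.63 (SE 0.32).

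For ATG8A, ATG8B and ATG8C, low CO2 replicate 1 lay below all 3 ambient arrays. ATG8A (AT4G21980_at) had log2 6.83, 8.31 and 8.34 in low CO2 against 7.34, 7.27 and 7.02 in ambient CO2, a difference of 0.62 (SE 0.40). ATG8B (AT4G04620_at) had log2 6.13, 7.29 and 7.48 in low CO2 against 6.59, 6.47 and 6.16 in ambient CO2, a difference of 0.56 (SE 0.35). ATG8C (AT1G62040_at) had log2 8.20, 9.38 and 9.42 in low CO2 against 8.78, 8.62 and 8.56 in ambient CO2, a difference of 0.34 (SE 0.32). The same position below every ambient array was seen for ATG8E, ATG8F and ATG8I, 6 of the 9 in all, against 26.5% of all probe sets. Once that array was left out, limma called all 9 higher, against 16.8% of all probe sets. Of the 9, 6 rose at least 2-fold, against 5.71% of all probe sets. The differences were then 1.11 for ATG8A, 0.98 for ATG8B, 0.74 for ATG8C, 1.01 for ATG8D and 1.05 for ATG8G. The family's members resemble each other in sequence, and whether their probes bind each other's transcripts was not tested.

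**Figure D2:**
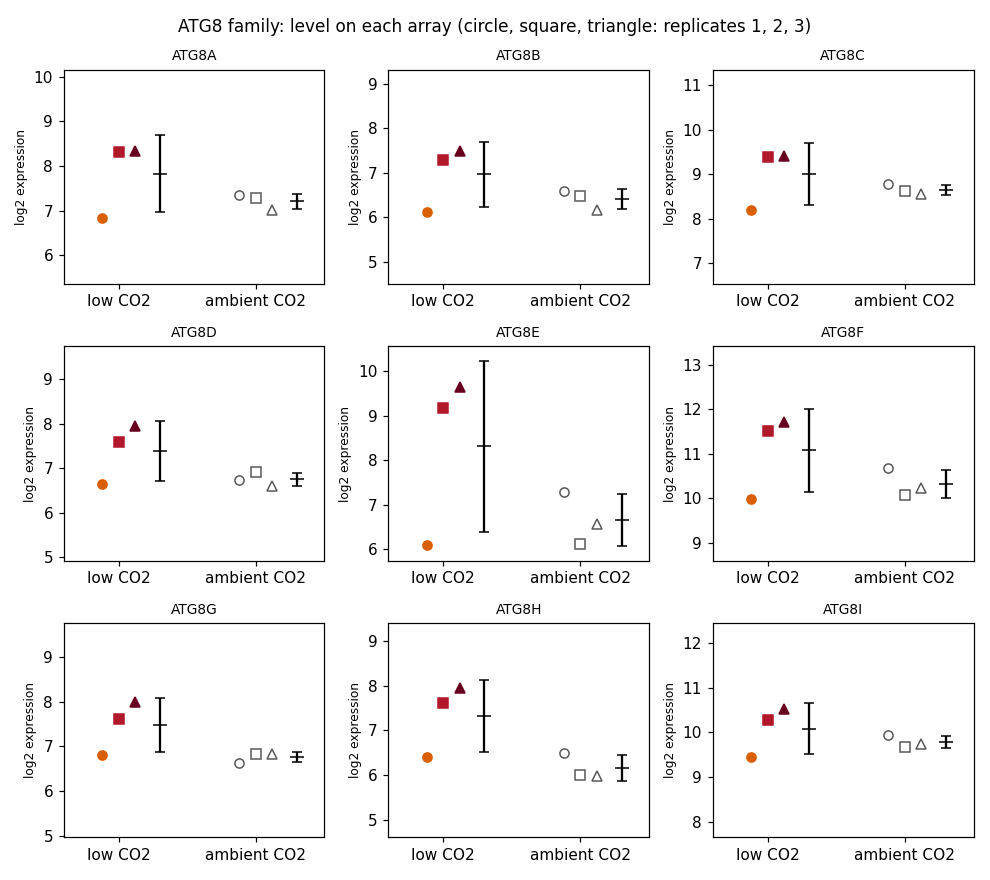
Log2 expression of the 9 ATG8 genes on each array, low CO2 at the left and ambient CO2 at the right of each panel, with circles, squares and triangles for replicates 1, 2 and 3. Horizontal ticks with bars give the mean ± SD of 3 arrays, and every panel spans the same log2 range. For ATG8E, low CO2 replicates 2 and 3 stand at 9.18 and 9.64, while replicate 1, at 6.10, stands at the level of the lowest ambient array.

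The conjugation enzymes attach ATG8 to the membrane lipid phosphatidylethanolamine. Of the 9 genes listed, 6 were measured. All 6 were higher in mean under low CO2, and the median log2 difference was 0.43. Limma called 0 with all 6 arrays and 4 higher without low CO2 replicate 1, against 16.8% of all probe sets higher. The groups did not overlap for 2 of the 6, ATG5 and the ATG16 gene, against 14.6% of all probe sets higher. ATG5 (AT5G17290_at), which is joined to ATG12 and then promotes the attachment of ATG8, had the largest difference of the group. Its levels were log2 7.60, 8.62 and 8.74 in low CO2 against 7.45, 7.27 and 7.24 in ambient CO2, so that the groups did not overlap. ATG5 differed by 1.00 (SE 0.30, 2.00-fold, limma adjusted p = 0.136). When low CO2 replicate 1 was left out it rose 2.56-fold, with the smallest adjusted p of the 38 genes in that comparison (8.38e-04 by limma).

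The ATG16 gene (AT5G50230), whose protein binds ATG5, differed from ATG5 in how alike the low CO2 arrays were. It measured log2 8.06, 8.07 and 8.21 in low CO2 against 7.88, 7.81 and 7.72 in ambient CO2. All 3 low CO2 arrays lay close together and above the ambient ones, with a small difference of 0.31 (SE 0.11, limma adjusted p = 0.151). On low CO2 replicates 2 and 3 alone it was 0.34 and did not pass the threshold (limma adjusted p = 0.0577). ATG3 (AT5G61500_at), the enzyme that transfers ATG8 to the lipid, stood at log2 8.68, 9.40 and 9.63 in low CO2 against 8.76, 8.52 and 8.56 in ambient CO2. Its groups overlapped through low CO2 replicate 1 and ambient replicate 1, and its difference was 0.62 (SE 0.25, limma adjusted p = 0.173), or 0.90 without low CO2 replicate 1 (limma adjusted p = 0.00361). Among the others, ATG12A, the tag joined to ATG5, differed by 0.48, the measured gene of the ATG8-trimming protease ATG4 (AT3G59950) by 0.38, and ATG7, the enzyme that activates both ATG8 and ATG12, by 0.27. Omitting low CO2 replicate 1, ATG12A and ATG7 rose by 0.80 and 0.40, while the ATG4 gene, at 0.46, did not pass.

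In the ATG1 kinase complex, which starts autophagosome formation and is held in check by the TOR kinase, all 7 genes were higher in mean under low CO2. The median log2 difference was 0.34, limma called 0 with all 6 arrays and 5 higher without low CO2 replicate 1, against 16.8% of all probe sets. The groups did not overlap for 1 of the 7, a share near the 14.6% of all probe sets. This gene was ATG11 (AT4G30790_at), a scaffold of the complex. It stood at log2 6.92, 7.47 and 7.73 in low CO2 against 6.67, 6.83 and 6.60 in ambient CO2. The difference of ATG11 was 0.67 (SE 0.21, limma adjusted p = 0.137), or 0.90 without low CO2 replicate 1 (limma adjusted p = 0.00367).

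Of the regulatory subunits, ATG13 (AT3G49590) measured log2 6.49, 7.07 and 7.22 in low CO2 against 6.77, 6.12 and 6.27 in ambient CO2. Here ambient replicate 1 lay above low CO2 replicate 1, and the difference was 0.54 (SE 0.25, limma adjusted p = 0.216). The second ATG13 gene (AT3G18770) showed little difference, 0.16, and 0.18 without low CO2 replicate 1 (limma adjusted p = 0.348). Among the kinase genes themselves, the ATG1 gene AT3G53930 had log2 5.24, 6.27 and 6.08 in low CO2 against 5.35, 5.41 and 5.48 in ambient CO2. Low CO2 replicate 1 was the lowest of the 6 arrays and replicates 2 and 3 were the highest, giving a difference of 0.45 (SE 0.26, limma adjusted p = 0.302) and of 0.76 without replicate 1 (limma adjusted p = 0.00420). The other ATG1 genes differed by 0.27 (AT3G61960) and 0.15 (AT2G37840), and ATG101, the partner of ATG13, by 0.34. On low CO2 replicate 1 all 3 ATG1 genes and ATG101, 4 of the 7, lay below every ambient array, against 26.5% of all probe sets. Without that array AT3G61960, ATG13 and ATG101 rose by 0.44, 0.76 and 0.75, while AT2G37840, at 0.33, did not pass (limma adjusted p = 0.0778).

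ATG9, ATG2 and the ATG18 family serve the growth of the membrane. ATG9 is the integral membrane protein of the pathway, ATG2 transfers lipids, and ATG18 proteins bind the lipid made by the phosphatidylinositol 3-kinase. All 9 measured genes were higher in mean under low CO2, and the median log2 difference was 0.36. Limma called 0 with all 6 arrays and 6 higher without low CO2 replicate 1, against 16.8% of all probe sets higher. The groups did not overlap for 2 of the 9, ATG2 and ATG18A, against 14.6% of all probe sets higher. ATG2 (AT3G19190_at) stood at log2 6.38, 7.28 and 7.21 in low CO2 against 6.35, 5.92 and 5.98 in ambient CO2. The groups did not overlap, but ambient replicate 1 lay close to low CO2 replicate 1. ATG2 differed by 0.88 (SE 0.26, 1.83-fold, limma adjusted p = 0.136), and by 1.16 on low CO2 replicates 2 and 3 alone (limma adjusted p = 0.00271).

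Differences in the ATG18 family ran from 0.06 to 0.65 on the log2 scale. ATG18A (AT3G62770_at), a member needed to form autophagosomes, measured log2 6.99, 7.35 and 7.46 in low CO2 against 6.87, 6.41 and 6.56 in ambient CO2. Its groups did not overlap, and its difference was 0.65 (SE 0.18, limma adjusted p = 0.131). ATG18F (AT5G54730_at) had log2 6.83, 7.41 and 7.39 in low CO2 against 6.96, 6.45 and 6.51 in ambient CO2, with ambient replicate 1 above low CO2 replicate 1 and a difference of 0.57 (SE 0.21, limma adjusted p = 0.164). ATG18G differed by 0.46, ATG9 by 0.36, ATG18C by 0.30 and ATG18H by 0.17. ATG18D and ATG18E, at 0.06 each, lay within 1 SE of no difference. The level of ATG18E was between log2 4.44 and 4.79 on all 6 arrays, close to the filter at log2 4. In the fit without low CO2 replicate 1, ATG18A rose by 0.79, ATG18F by 0.76, ATG18G by 0.67, ATG9 by 0.53 and ATG18C by 0.42, while ATG18H (0.27), ATG18D (0.01) and ATG18E (-0.02) did not pass. Across the 38 genes, ATG18D and ATG18E were the 2 for which low CO2 replicate 1 was not the lowest low CO2 array.

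The phosphatidylinositol 3-kinase complex was represented by 4 genes, each higher in mean under low CO2, and their median log2 difference was 0.34. Limma called 0 with all 6 arrays and 3 higher without low CO2 replicate 1, against 16.8% of all probe sets higher. The groups did not overlap for 2 of the 4, VPS15 and VPS34, against 14.6% of all probe sets higher. VPS15 (AT4G29380_at), the regulatory subunit that holds the kinase in the complex, had the smallest p of the 38 genes. It stood at log2 6.58, 6.79 and 7.08 in low CO2 against 6.00, 6.16 and 6.14 in ambient CO2. Every low CO2 array lay above every ambient array by a clear margin, replicate 1 included, which was 0.48 above the ambient mean. The difference of VPS15 was 0.72 (SE 0.15, 1.65-fold, limma adjusted p = 0.118), and it ranged from 0.59 to 0.84 over the omission of each array in turn.

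VPS34 (AT1G60490_at), the lipid kinase itself, measured log2 7.46, 7.78 and 7.90 in low CO2 against 7.41, 7.07 and 7.14 in ambient CO2. Its groups did not overlap, although ambient replicate 1 came close to low CO2 replicate 1, and its difference was 0.50 (SE 0.16, limma adjusted p = 0.138). The ATG14 gene (AT1G77890), for the subunit that directs the complex to autophagy, had log2 5.38, 5.67 and 5.46 in low CO2 against 5.39, 5.31 and 5.31 in ambient CO2, a difference of 0.17 (SE 0.12, limma adjusted p = 0.374). ATG6, the plant relative of Beclin, differed by 0.15 (SE 0.22), lay below every ambient array on low CO2 replicate 1, and turned to -0.01 without low CO2 replicate 2. Leaving out low CO2 replicate 1, VPS15, VPS34 and ATG6 rose by 0.84, 0.63 and 0.40, and the ATG14 gene, at 0.23, did not pass (limma adjusted p = 0.158).

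All 3 receptor genes were higher in mean under low CO2. Their median log2 difference was 0.62. Limma called 0 with all 6 arrays and 3 higher without low CO2 replicate 1, against 16.8% of all probe sets higher. The groups did not overlap for NBR1 and ATI1, 2 of the 3, against 14.6% of all probe sets higher. NBR1 (AT4G24690_at), which brings ubiquitin-tagged protein aggregates to ATG8, stood at log2 9.37, 10.00 and 10.30 in low CO2 against 9.33, 9.21 and 9.11 in ambient CO2. Low CO2 replicate 1 was barely above ambient replicate 1, and the difference was 0.68 (SE 0.24, limma adjusted p = 0.150), or 0.94 without low CO2 replicate 1 (limma adjusted p = 0.00361). ATI1 and ATI2 are plant ATG8-interacting proteins found on bodies from the endoplasmic reticulum and plastids. ATI1 (AT2G45980_at) had log2 9.17, 9.43 and 9.56 in low CO2 against 9.04, 8.82 and 8.91 in ambient CO2, a difference of 0.46 (SE 0.14, limma adjusted p = 0.136). ATI2 (AT4G00355_at) had log2 8.77, 9.17 and 9.36 in low CO2 against 8.80, 8.33 and 8.30 in ambient CO2, a difference of 0.62 (SE 0.21, limma adjusted p = 0.142), and only ambient replicate 1 kept its groups from separating. On low CO2 replicates 2 and 3 alone, ATI1 rose by 0.57 and ATI2 by 0.79.

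**Figure D3:**
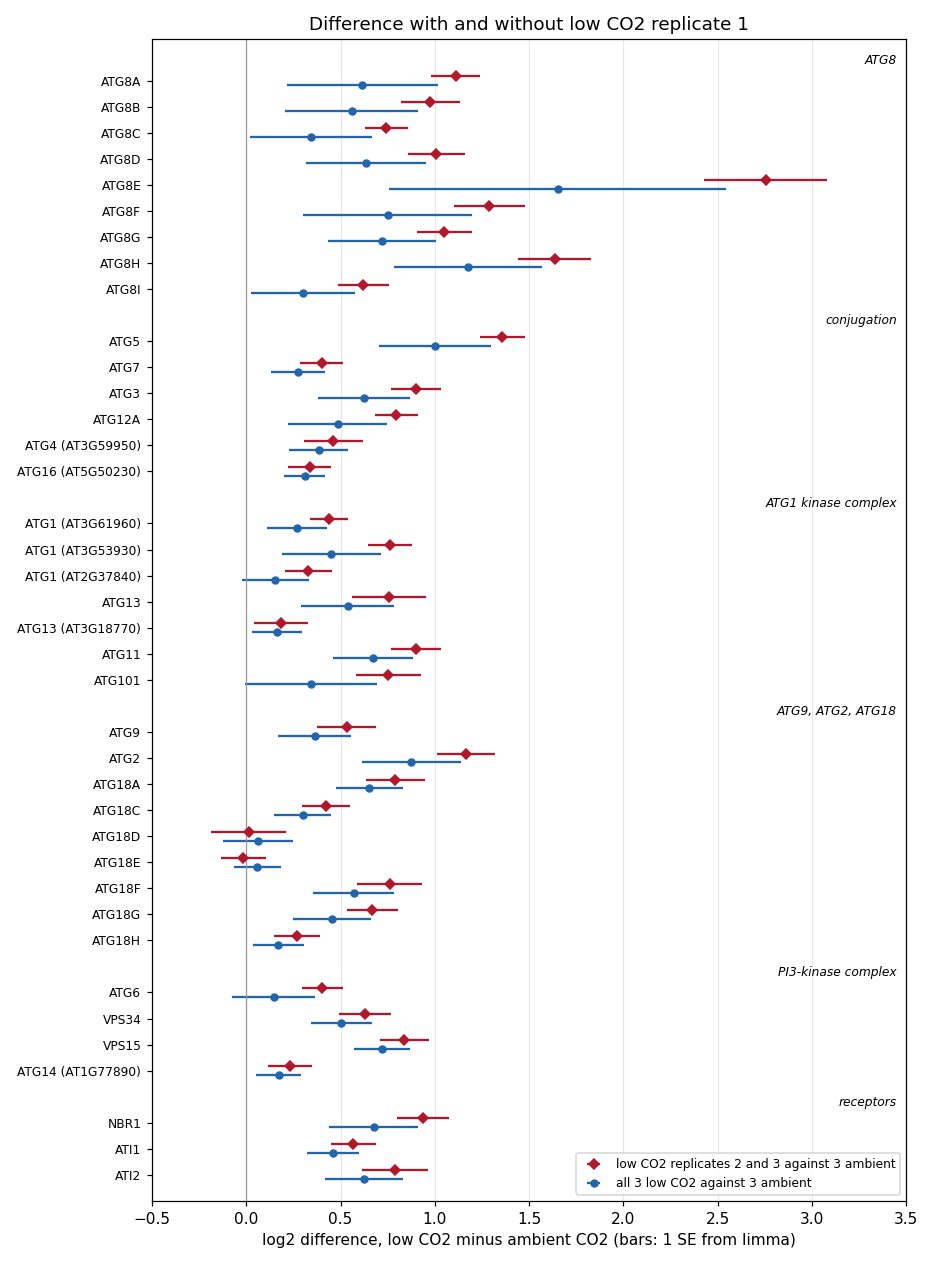
Log2 difference of low CO2 minus ambient CO2 for the 38 genes, with bars of 1 SE from limma. Diamonds leave out low CO2 replicate 1 and circles use all 3 low CO2 arrays. ATG8E has 2.75 without replicate 1 and 1.65 with all arrays, while VPS15 has 0.84 and 0.72.

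The position of low CO2 replicate 1 relative to the ambient arrays is given here by complex. It rests on 1 array and on groups as small as 3 and 4 genes. No test of a difference between complexes was made. Relative to the ambient mean, the ATG8 median was -0.33 on low CO2 replicate 1, 0.88 on replicate 2 and 1.18 on replicate 3. For the receptors these medians were 0.25, 0.69 and 0.88, and for the phosphatidylinositol 3-kinase complex 0.15, 0.51 and 0.52. The conjugation enzymes had 0.15, 0.56 and 0.70, the kinase complex -0.07, 0.57 and 0.66, and the ATG9, ATG2 and ATG18 group 0.16, 0.38 and 0.63. Low CO2 replicate 1 lay above the ambient mean for 2 of 9 ATG8 genes, 3 of 7 kinase complex genes and 8 of 9 genes of the ATG9, ATG2 and ATG18 group. The same held for 5 of 6 conjugation genes, 3 of 4 phosphatidylinositol 3-kinase genes and 3 of 3 receptors, against 52.7% of all probe sets. Over all probe sets the 3 medians were 0.02, -0.04 and -0.06.

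Genes known to be induced by sugar starvation stood apart on the same arrays. Their median over 7 genes was 0.21 on low CO2 replicate 1, 3.13 on replicate 2 and 2.59 on replicate 3, and 0.65 on ambient replicate 1 relative to the other ambient arrays. All 7 rose without low CO2 replicate 1 by limma, against 16.8% of all probe sets, and 0 passed with all 6 arrays. DIN9 differed by 1.10 (SE 0.20, limma adjusted p = 0.115) and SEN1 by 3.14 (SE 0.66, limma adjusted p = 0.118). On low CO2 replicate 1, 5 of the 7 lay above the ambient mean, against 52.7% of all probe sets. DIN9 stood 0.70 and SEN1 1.64 above it. The groups did not overlap for 3 of the 7, DIN9, SEN1 and PRODH1, all higher, against 14.6% of all probe sets higher. Of the 5 guard cell markers, GC1 was higher and KAT1 and MYB60 were lower without overlap, against 14.6% and 14.3% of all probe sets. The summed log2 level of these 5 was 31.07 to 32.47 in low CO2 and 32.31 to 33.80 in ambient CO2, with no marker below log2 4.44. The part of either list in the autophagy values was not tested.

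Genes around the core machinery did not move as one. Of 17 further autophagy factors, 13 were tested, 8 with a higher and 5 with a lower mean in low CO2 and a median log2 difference of 0.13. Limma called 0 of the 13 with all 6 arrays. Without low CO2 replicate 1 it called 3 higher and 2 lower, shares near the 16.8% and 18.5% of all probe sets. TSPO, a membrane protein that is itself degraded by autophagy, had log2 5.10, 5.39 and 5.81 in low CO2 against 4.89, 4.76 and 4.71 in ambient CO2. Its groups did not overlap, and its difference was 0.65 (SE 0.19, limma adjusted p = 0.136). The locus AT3G43230, for which the gene table gives no symbol, had log2 7.75, 8.69 and 9.03 in low CO2 against 7.60, 7.53 and 7.28 in ambient CO2, a difference of 1.02 (SE 0.32, limma adjusted p = 0.136). Both of these lay above every ambient array on all 3 low CO2 arrays, as did 3 of the 13 in all, against 14.6% of all probe sets.

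Subunits of the kinases that control autophagy differed in both directions, from -0.35 to 0.37 on the log2 scale. Of 8 genes of TOR, which restrains autophagy, and SnRK1, which promotes it, 7 were tested. The median log2 difference was 0.07, with 4 genes higher and 3 lower in mean, and limma called 0 with all 6 arrays. In the fit without low CO2 replicate 1 it called 1 of the 7 higher, a share near the 16.8% of all probe sets. This was TOR, at 0.37 (limma adjusted p = 0.0362). SNF4, a SnRK1 subunit, stood at log2 7.85, 7.93 and 7.51 in low CO2 against 8.13, 8.06 and 8.14 in ambient CO2, with no overlap and a difference of -0.35 (SE 0.14, limma adjusted p = 0.177). RAPTOR1B, the TOR partner that binds its substrates, had log2 8.04, 8.09 and 8.03 in low CO2 against 7.94, 7.37 and 7.74 in ambient CO2, a difference of 0.37 (SE 0.16, limma adjusted p = 0.194). Its groups did not overlap either. Of the 7 genes, 1 was thus higher and 1 lower without overlap, against 14.6% and 14.3% of all probe sets.

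Vacuolar proteases break down what autophagy delivers. Of 7 genes, 6 were tested, 5 of them higher in mean under low CO2. Their median log2 difference was 0.75. Relative to the ambient mean, the median was 0.26 on low CO2 replicate 1, 0.80 on replicate 2 and 0.99 on replicate 3. Limma called 0 with all 6 arrays and 4 higher without low CO2 replicate 1, against 16.8% of all probe sets. The locus AT4G01610, without a symbol in the gene table, stood at log2 9.61, 9.86 and 9.98 in low CO2 against 9.16, 9.09 and 8.67 in ambient CO2, a difference of 0.84 (SE 0.17, limma adjusted p = 0.118). GAMMA-VPE, a vacuolar processing enzyme of leaves and other vegetative organs, had log2 10.62, 11.55 and 11.78 in low CO2 against 10.10, 10.54 and 9.97 in ambient CO2, a difference of 1.11 (SE 0.32, limma adjusted p = 0.134). For both genes all 3 low CO2 arrays lay above the ambient arrays, replicate 1 included. The same held for 3 of the 6 tested in all, against 14.6% of all probe sets. SAG12, a protease gene of late senescence, was not tested, since it lay between log2 3.47 and 3.62 on all arrays except ambient replicate 2, at 5.28.

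**Figure D4:**
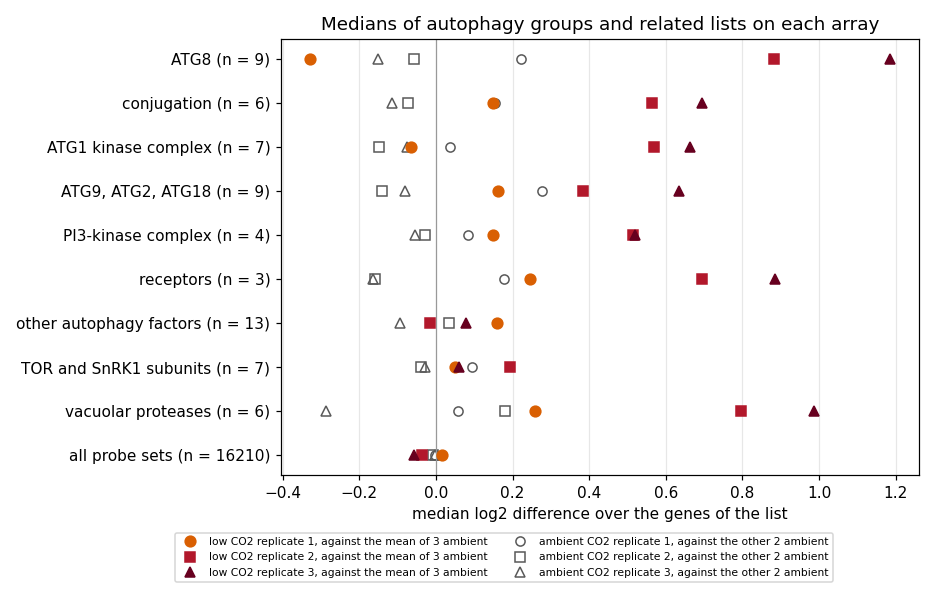
Median log2 difference on each array for the autophagy groups, 3 related lists and all probe sets, with the number of tested genes beside the name. Low CO2 arrays (filled) are set against the mean of the 3 ambient arrays, and each ambient array (open) against the other 2. The ATG8 median is -0.33 on low CO2 replicate 1 and 1.18 on replicate 3. On low CO2 replicates 1, 2 and 3, TOR and SnRK1 subunits have medians of 0.05, 0.19 and 0.06. All probe sets have 0.02, -0.04 and -0.06.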

How the data were processed

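Total leaf RNA was labelled with biotin for Affymetrix arrays, per the labels' protocols. The deposited values are log2 expression. The authors computed them by GCRMA, as the submitters' processing notes record without a version. GCRMA corrects background by probe sequence and draws weak probe sets to a floor. The log base was read from the values (2.62 to 14.20), and neither the genome build nor the version of the probe grouping is stated, so no coordinates are printed. Probe sets carry locus names. All 42 loci were found in RefSeq's gene table for TAIR10.1, which names 34 of them. For the other 8 the family comes from the definition of the set, and the locus is printed. None of the measured members shared all 6 values with another probe set.

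The contrast of low CO2 with ambient CO2 was fitted by lmFit and eBayes of limma 3.58.1 (R 4.3.3), 2-sided, adjusted over all 16210 probe sets tested (log2 4 or above on at least 3 arrays). Members, lists and tests were chosen with earlier results of these data known. Every member was to be named, all ATG8 genes and the 3 of each complex with the smallest p with a value on each array, and the 2 with the smallest p of each other list. An exact permutation test of 3 against 3 cannot give a p below 0.1 and was not used. The labels give no pairing of samples by replicate number, and the main fit used none. The labels call the replicates separate pools, not separate experiments. Protein and promoter sequences were not analysed here. The number of arrays limits the precision. Plots were made in Python 3.11.15 using matplotlib 3.10.9.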

Additional observations from a re-analysis of the deposited data

How the results depend on the processing

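With all 6 arrays, limma's count of 0 autophagy genes higher and 0 lower stood without a filter, with a floor of log2 5, with trend and robust settings, after quantile normalization, after centring of the arrays and with the replicate number as a block. The block gave 0 calls over all probe sets too, and deviations from the group means correlated at -0.19, 0.02 and -0.20 for replicates 1, 2 and 3. Between unlike replicate numbers these correlations ran from -0.35 to 0.30. With 3 arrays per group they cannot decide whether the numbers pair the samples. The planned array weights, by limma's default method, did not converge, and with the weights it returned (40.4 for low CO2 replicate 2) 35 autophagy genes were called higher and 0 lower, against 4798 and 5573 of all probe sets. The gene-by-gene method was then chosen after seeing these data, and gave low CO2 replicate 1 a weight of 0.18 and replicate 2 one of 4.17. These weights called 34 of the 38 autophagy genes higher, and 6 of 13 further autophagy factors higher and 1 lower. They also called 2 of 7 TOR and SnRK1 genes, 4 of 6 vacuolar proteases and 7 of 7 starvation genes higher. Among all probe sets they called 3899 (24.1%) higher and 4353 (26.9%) lower. Over the omission of each array, calls of autophagy genes higher ran from 0 to 30. For further factors they ran from 0 to 3 higher and 0 to 2 lower, and for TOR and SnRK1 genes from 0 to 1 higher. Calls of proteases higher ran from 0 to 4, and of starvation genes higher from 0 to 7. Among all probe sets they ran from 0 to 2722 (16.8%) higher and from 0 to 3001 (18.5%) lower. Each maximum came without low CO2 replicate 1. Median log2 differences ran from 0.35 to 0.76 for all autophagy genes, 0.36 to 1.05 for ATG8, 0.30 to 0.63 for conjugation, 0.19 to 0.75 for the kinase complex, 0.20 to 0.53 for the ATG9, ATG2 and ATG18 group, 0.28 to 0.52 for the phosphatidylinositol 3-kinase complex and 0.47 to 0.79 for receptors. Signs turned for 3 genes. ATG18D turned to -0.021 with array weights and ran from -0.14 (without ambient replicate 2) to 0.18 over the omissions. ATG18E turned to -0.044 with array weights and ran from -0.016 (without low CO2 replicate 1, and also negative without ambient replicate 1) to 0.11. ATG6 ran from -0.010 (without low CO2 replicate 2) to 0.40. The cause was not tested.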
